A study of Mus musculus with 9 samples.

Results

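Loss of either HIFα subunit in the intestinal epithelium was set against littermate controls, with the 6 knockout libraries pooled and each knockout group given a weight of 0.5. All 9 libraries of the series entered: 3 of the strain HIF1α∆IEC, 3 of the strain HIF2α∆IEC and 3 HIFα F/F littermate controls. The suffix ∆IEC stands for a deletion in intestinal epithelial cells. Each library holds RNA of epithelial cells isolated from the small intestine of mice, and every sample carries the treatment label naïve. The extraction protocol mentions collagen-induced arthritis, whereas the treatment label gives no disease model. The sources used here do not give the age, the Cre driver, the deleted exons or the floxed gene that the controls carry. Nor do the labels state whether libraries came from separate animals, so p-values measure the spread between these samples, which may in part be technical. Of the 43629 genes in the table of counts, 15486 had enough counts to be tested.

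Hypoxia-inducible factors are transcription factors made of an oxygen-regulated α subunit and the constant partner ARNT. When oxygen is plentiful, prolyl hydroxylases mark HIF1α (gene Hif1a) and HIF2α (gene Epas1) for destruction, and when oxygen is short the α subunits persist and bind the short DNA core A/GCGTG near their target genes. The surface of the gut epithelium is poor in oxygen even in health, and HIF1α is known there for glycolysis and barrier genes and HIF2α for iron uptake genes. The comparison asks which transcripts the 2 losses share against control.

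Total counts per library ran from 20959964 to 40391453. Among the knockouts, replicate 2 of HIF1α∆IEC and replicate 1 of HIF2α∆IEC stood apart. Mitochondrial transcripts made up 12.15% and 10.76% of their counts, against 5.04% to 6.74% in the controls. Xist and 4 Y-linked genes read the 3 controls as male, and replicate 1 of each knockout group as male and replicates 2 and 3 as female. Sex therefore differs between the groups, and the leading results were also computed in the 5 male libraries. These hold only 1 library of each knockout group, and that of HIF2α∆IEC is among the 2 that stood apart. Their values therefore do not part sex from the traits of single libraries. Epithelial identity was shared: the 16 tested epithelial markers had a median log2 fold change of -0.04, with Cdh1, the adherens junction cadherin, at 965, 866 and 921 CPM (counts scaled to library size) in the controls and 646 to 967 CPM in the knockouts.

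Neither targeted gene separated its own knockout group from the controls. Hif1a (chromosome 12, 73901375 to 73947530, mm10) had 16, 19.9 and 21.1 CPM in the controls, 22.6, 64.2 and 18 CPM in HIF1α∆IEC and 34.9, 15.1 and 22.5 CPM in HIF2α∆IEC. Epas1 (chromosome 17, 86753907 to 86833410) had 32.7, 14.5 and 21.1 CPM in the controls, 29.8, 18.5 and 22.3 CPM in HIF1α∆IEC and 36.1, 11.2 and 11.6 CPM in HIF2α∆IEC. In both genes the groups overlapped. For Epas1 this came from replicate 1 of HIF2α∆IEC, whereas its replicates 2 and 3 lay below all other libraries. Hif1a was not lower in HIF1α∆IEC, at a log2 fold change of 0.88 ± 0.46 (SE) against control. Over both knockouts the log2 fold change was 0.61 ± 0.40 (SE) for Hif1a, which was 0.04 without the 2 libraries that stood apart. For Epas1 it was -0.08 ± 0.40, and it took the other sign in the 5 male libraries (0.53). Arnt, the shared partner, lay at -0.06 ± 0.20. A deletion of single exons need not lower a gene's total count, so these values are a weak check of the labels.

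No gene was called for either loss against control by edgeR's quasi-likelihood test, at a Benjamini-Hochberg adjusted p under 0.05 (0% of 15486 genes, smallest adjusted p = 0.966). Without adjustment, 204 genes (1.32%) had a p under 0.05, where chance alone gives about 774.3. They comprised 128 higher genes (0.827%) and 76 lower genes (0.491%). limma-voom also called none, but it called 19 genes with quality weights. DESeq2 called 4 of 15377 genes (0.026%), which were Mt1, Xist and Pxdn as higher and Gm6969 as lower. All other p-values below are therefore unadjusted and order the genes. They do not mark any as changed, and adjusted p was 1.00 for each gene named below except Gm6969.

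What both losses might share was looked for among the genes at which all 6 knockout libraries lay outside all 3 controls. The knockouts lay above the controls at 67 genes (0.433%) and below them at 79 genes (0.51%). Of these 146 genes (0.943%), 62 (0.4%) also had an unadjusted p under 0.05. If all 9 libraries were alike, chance would put 1 in 84 genes above and 1 in 84 below, more than either share. The number of separated genes is thus no sign of a shared change. The 67 higher genes had a median absolute log2 fold change of 0.679, and 53 of them were protein-coding. Of the 79 lower genes 48 were protein-coding and 13 were lincRNAs. Among genes with a mean CPM of at least 1, 49 lay above (0.374%) and 53 lay below (0.405%). The 12 of smallest p in each direction are described next. They were chosen by this same contrast, so their direction and separation are a description and carry no test.

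**Figure D1:**
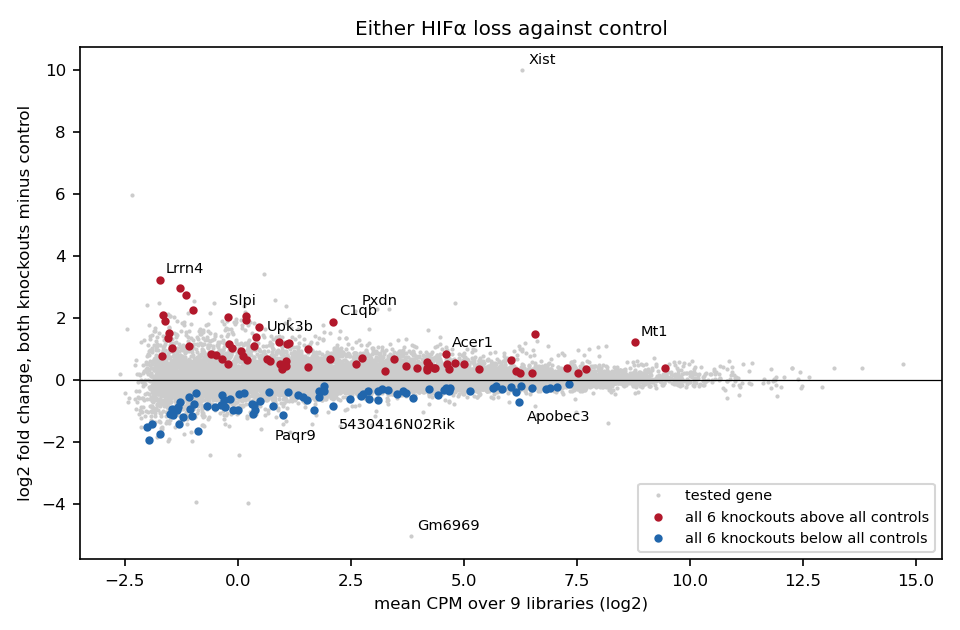
Log2 fold change of the 6 knockout libraries (both groups weighted equally) minus control, against the mean level over all 9 libraries as log2 CPM. Each point is 1 of 15486 tested genes, with the 67 genes above all controls in red and the 79 genes below all controls in blue. Mt1, Apobec3 and Acer1 are the labelled separated genes at the higher levels. Xist (9.98) and Gm6969 (-5.02) have larger fold changes but groups that overlap.

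Metallothionein 1 had the smallest p of the separated genes. Metallothioneins are small cysteine-rich proteins that bind zinc and copper, and Mt1 and Mt2 are neighbours on chromosome 8 that metals and glucocorticoids are known to raise together. Mt1 (ENSMUSG00000031765, chromosome 8, 94179089 to 94180325) had 236, 181 and 265 CPM in the controls. In HIF1α∆IEC it had 409, 445 and 377 CPM, and in HIF2α∆IEC 896, 577 and 578 CPM. All 6 knockout libraries lay above the highest control, and all 3 HIF2α∆IEC libraries lay above all 3 HIF1α∆IEC libraries. Over both knockouts the log2 fold change was 1.22 ± 0.22 (95% interval 0.74 to 1.70), or 2.33-fold, with an unadjusted p of 0.000149 in edgeR and an adjusted p of 0.00255 in DESeq2. Against the same 3 controls, it was 0.85 ± 0.24 in HIF1α∆IEC and 1.59 ± 0.25 in HIF2α∆IEC. Leaving out each library in turn gave 1.08 to 1.34, the 5 male libraries gave 1.41, and leaving out the 2 libraries that stood apart gave 1.06.

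Mt2 had the opposite sign. Mt2 (ENSMUSG00000031762, chromosome 8, 94172618 to 94173567) had 81.4, 62.1 and 104 CPM in the controls, 37.6, 39.3 and 25.1 CPM in HIF1α∆IEC and 110, 43.7 and 75.2 CPM in HIF2α∆IEC. The HIF1α∆IEC libraries lay below every control, and those of HIF2α∆IEC overlapped the controls. Its log2 fold change over both knockouts was -0.70 ± 0.28, made of -1.28 ± 0.34 in HIF1α∆IEC and -0.11 ± 0.33 in HIF2α∆IEC. It was -0.36 in the 5 male libraries. HIF2α∆IEC lay 1.17 above HIF1α∆IEC (unadjusted p = 0.00483, edgeR adjusted p = 0.649).

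The ratio of the 2 neighbours separated the groups more widely than either gene. Mt1 stood at 2.9, 2.91 and 2.55 times the CPM of Mt2 in the controls, with no correction for length. It stood at 10.9, 11.3 and 15.0 times in HIF1α∆IEC and at 8.14, 13.2 and 7.69 times in HIF2α∆IEC. The lowest knockout ratio was thus above the highest control ratio with a wide gap. The mean log2 ratio was 1.48 ± 0.108 (SD) in control, 3.62 ± 0.252 in HIF1α∆IEC and 3.23 ± 0.43 in HIF2α∆IEC. The knockouts exceeded the controls by 1.948, or 3.86-fold. This ratio was chosen after its values were seen, so it is a description and carries no test. The difference was 1.82 to 2.02 when each library was left out, 2.03 without the 2 libraries that stood apart and 1.76 in the 5 male libraries.

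**Figure D2:**
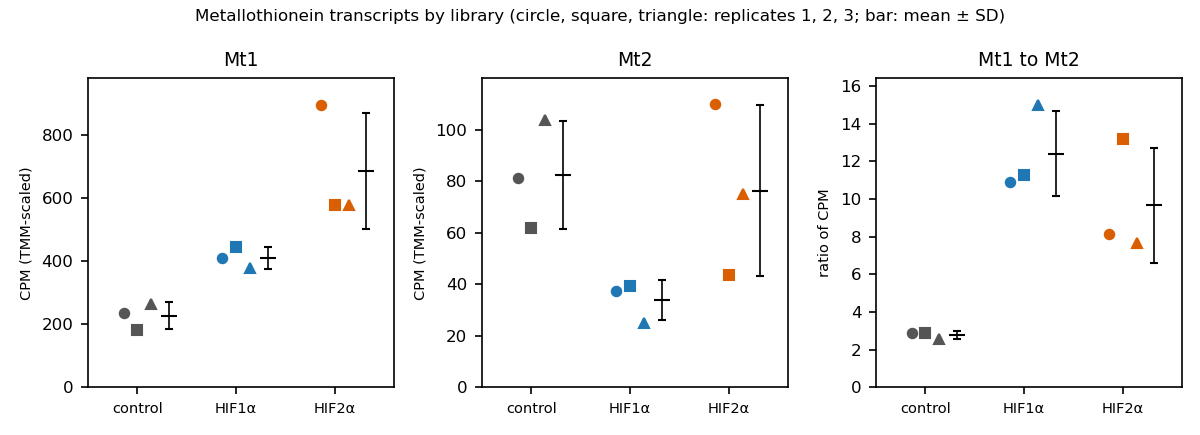
CPM of Mt1 and of Mt2, and the ratio of the 2, in each of 9 libraries (vertical axes, linear from 0), by group. Points are libraries and bars are the mean ± SD of 3; the ratio lies between 2.55 and 2.91 in the controls and between 7.69 and 15.0 in the knockouts.

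The coding sequences show how far reads from the coding parts of the 2 genes can be told apart. They are given 5′ to 3′ from the GENCODE M21 transcripts (GRCm38), with the bases that differ between the 2 genes in capitals.
Mt1: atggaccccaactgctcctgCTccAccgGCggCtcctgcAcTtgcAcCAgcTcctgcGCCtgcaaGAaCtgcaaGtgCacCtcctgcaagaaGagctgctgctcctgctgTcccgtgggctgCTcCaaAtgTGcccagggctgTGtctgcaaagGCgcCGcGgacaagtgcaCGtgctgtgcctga
Mt2: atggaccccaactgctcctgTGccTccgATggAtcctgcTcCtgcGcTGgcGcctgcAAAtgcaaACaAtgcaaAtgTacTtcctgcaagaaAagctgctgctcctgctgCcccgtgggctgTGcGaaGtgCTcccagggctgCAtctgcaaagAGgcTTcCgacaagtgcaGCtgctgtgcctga
Of 186 coding bases 38 differ, 79.6% are identical, and the longest identical run is 20 bases. The gene lengths are 540 bases for Mt1 and 556 for Mt2, and the parts outside the coding sequence were not compared. Counts per gene do not distinguish transcripts of the Mt1 locus from transcripts of a transgene that carries part of the Mt1 sequence. The driver of Cre is not named in the labels, so the source of the Mt1 reads was not tested.

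Among the other 11 leading higher genes, 2 were protein-coding genes with over 10 CPM in every library. Acer1 (chromosome 17, 56953490 to 56982126) encodes alkaline ceramidase 1, which splits ceramide into sphingosine and a fatty acid. It had 18, 12.9 and 15.7 CPM in the controls, 26.7, 19.1 and 22.5 CPM in HIF1α∆IEC and 26.9, 43.8 and 33.2 CPM in HIF2α∆IEC. The lowest knockout lay just above the highest control. Its log2 fold change was 0.85 ± 0.24, with 0.55 ± 0.26 in HIF1α∆IEC and 1.16 ± 0.27 in HIF2α∆IEC against the same controls, and it was 0.78 in the 5 male libraries. Sytl1, a synaptotagmin-like protein that binds Rab27 on secretory vesicles, had 13.5, 13.5 and 13.9 CPM in the controls. Its knockout libraries had 20.4, 21.4 and 23.1 CPM in HIF1α∆IEC and 15.1, 24.8 and 18.5 CPM in HIF2α∆IEC. The log2 fold change of Sytl1 was 0.59 ± 0.22 and was 0.36 in the 5 male libraries.

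Of the remaining leading higher genes 6 encode secreted, matrix or surface proteins of low level. C1qb, a chain of complement C1q made by tissue macrophages, had 1.42, 1.22 and 1.71 CPM in the controls, 2.65, 9.50 and 11.2 CPM in HIF1α∆IEC and 5.57, 3.19 and 2.31 CPM in HIF2α∆IEC (log2 fold change 1.88 ± 0.49). Upk3b, a uroplakin that marks mesothelium, had 0.83, 0.244 and 0.569 CPM in the controls and 1.01 to 2.29 CPM in the knockouts (1.71 ± 0.45). Sparc, a matrix glycoprotein of stromal cells, had 0.391, 0.203 and 0.569 CPM against 0.616 to 2.42 CPM (1.93 ± 0.56). These are markers of cells outside the epithelium, whose lists are given below. Slpi, a secreted inhibitor of leukocyte proteases, had 0.635, 0.203 and 0.228 CPM in the controls and 0.761 to 3.15 CPM in the knockouts (2.08 ± 0.57). Serping1, the inhibitor of complement C1, lay at 1.38 ± 0.47, and Timp2, an inhibitor of matrix metalloproteinases, at 1.00 ± 0.38. In bulk samples, more cells of a type and more RNA per cell cannot be told apart.

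The last 3 leading higher genes were Zfp54, a zinc finger gene, Trove2, which encodes the RNA-binding protein Ro60, and the unprocessed pseudogene Gm29216. Zfp54 had a log2 fold change of 1.22 ± 0.42 and Trove2 1.18 ± 0.46, and these were 0.81 and 0.70 without the 2 libraries that stood apart. Gm29216 had 38.5, 47.2 and 43.4 CPM in the controls and 262 and 222 CPM in the 2 libraries with the high mitochondrial share, and 51.4 to 72.2 CPM in the other 4 knockouts. Its log2 fold change went from 1.49 ± 0.57 to 0.50 without those 2 libraries. A pseudogene can share reads with its parent sequence, so its count is uncertain.

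Of the 12 leading lower genes 7 code for protein. Paqr9, a membrane protein of the progestin and adipoQ receptor family, had 3.03, 2.24 and 4.17 CPM in the controls, 1.30, 1.79 and 1.39 CPM in HIF1α∆IEC and 0.976, 1.34 and 1.83 CPM in HIF2α∆IEC. Its log2 fold change was -1.13 ± 0.34, with -1.07 ± 0.41 and -1.18 ± 0.40 in the 2 knockout groups. Apobec3, a cytidine deaminase that restricts retroviruses, had the highest CPM of the 7, with 101, 109 and 89.4 CPM in the controls, 82.4, 39.4 and 86.3 CPM in HIF1α∆IEC and 67.9, 48.9 and 42.9 CPM in HIF2α∆IEC. Its log2 fold change of -0.72 ± 0.25 became -0.42 in the 5 male libraries. The highest knockout value of Apobec3 lay just under the lowest control.

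Wwtr1 encodes TAZ, a transcriptional coactivator held in check by the Hippo pathway. It had 1.86, 1.71 and 2.16 CPM in the controls, 1.16, 0.897 and 1.53 CPM in HIF1α∆IEC and 1.07, 0.769 and 0.555 CPM in HIF2α∆IEC, with a log2 fold change of -0.96 ± 0.35. Its paralogue Yap1, named here after its values were seen, also lay lower in all 6 knockouts, with 77.1, 71.2 and 72.5 CPM in the controls against 55.5 to 68.3 CPM. The step of Yap1 was small (-0.23 ± 0.16, unadjusted p = 0.164). Sik2, a salt-inducible kinase, had 6.98, 7.36 and 7.21 CPM in the controls, 5.46 to 6.34 CPM in HIF1α∆IEC and 3.02 to 5.06 CPM in HIF2α∆IEC (-0.62 ± 0.26). Greb1, first known as an oestrogen-regulated gene, lay at -0.64 ± 0.25, the zinc finger gene Zfp169 at -0.63 ± 0.27 and Ecscr, an endothelial surface protein gene, at -0.83 ± 0.34. The list of endothelial markers did not share this direction, with 5 of 7 tested members above control and a median of 0.22. That median was -0.33 in the 5 male libraries.

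The other 5 leading lower genes are not protein-coding. The lincRNA 5430416N02Rik (chromosome 5, 100420842 to 100429516) had the smallest p of the lower genes. It had 4.30, 5.89 and 4.10 CPM in the controls, 1.92, 2.06 and 2.32 CPM in HIF1α∆IEC and 3.05, 2.88 and 2.63 CPM in HIF2α∆IEC. That is a log2 fold change of -0.96 ± 0.27, or 1.94-fold lower, and it was -0.98 in the 5 male libraries. The lincRNA C230035I16Rik lay at -0.79 ± 0.34. The antisense genes 4921514A10Rik (-1.09 ± 0.41), 4930579G18Rik (-0.85 ± 0.36) and Hnf1aos2 (-0.97 ± 0.42) overlap other genes. No source states whether the counting used strand, so their reads and those of the opposite strand cannot be told apart.

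**Figure D3:**
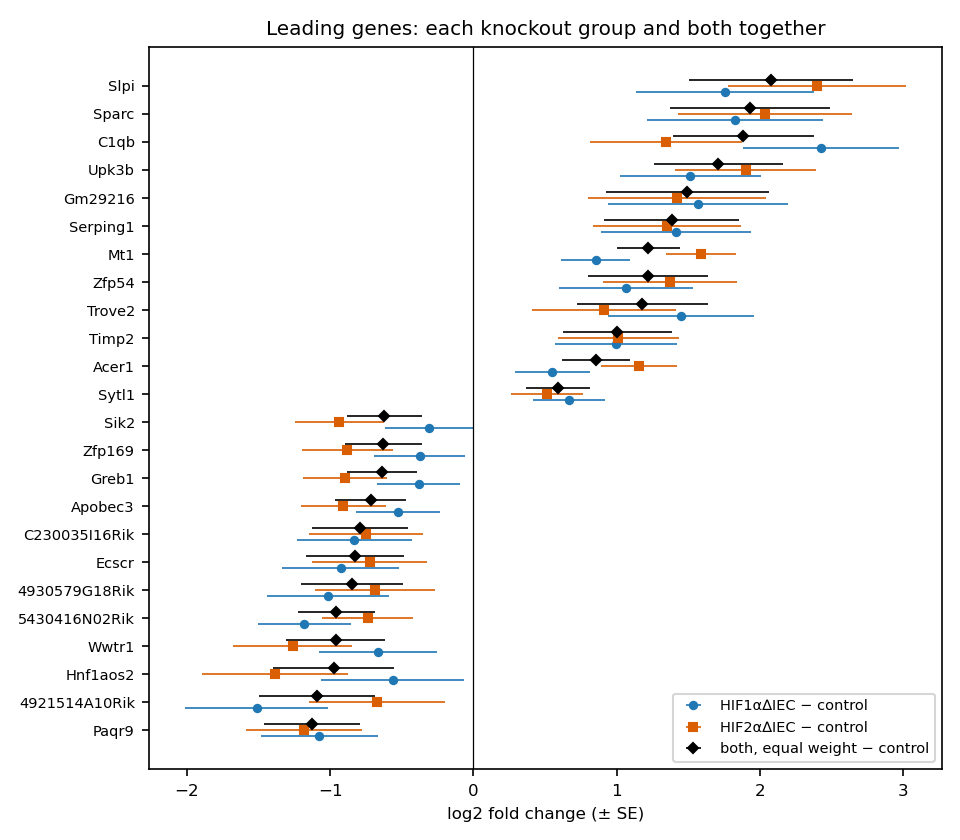
Log2 fold change ± SE (horizontal axis) of the 24 leading genes in HIF1α∆IEC (blue circles), in HIF2α∆IEC (orange squares) and in both with equal weight (black diamonds), each minus the same 3 controls. Mt1 (0.85 and 1.59) and Acer1 (0.55 and 1.16) have larger values in HIF2α∆IEC, whereas Paqr9 (-1.07 and -1.18) and Timp2 (1.00 and 1.01) have like values in both groups.

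**Figure D4:**
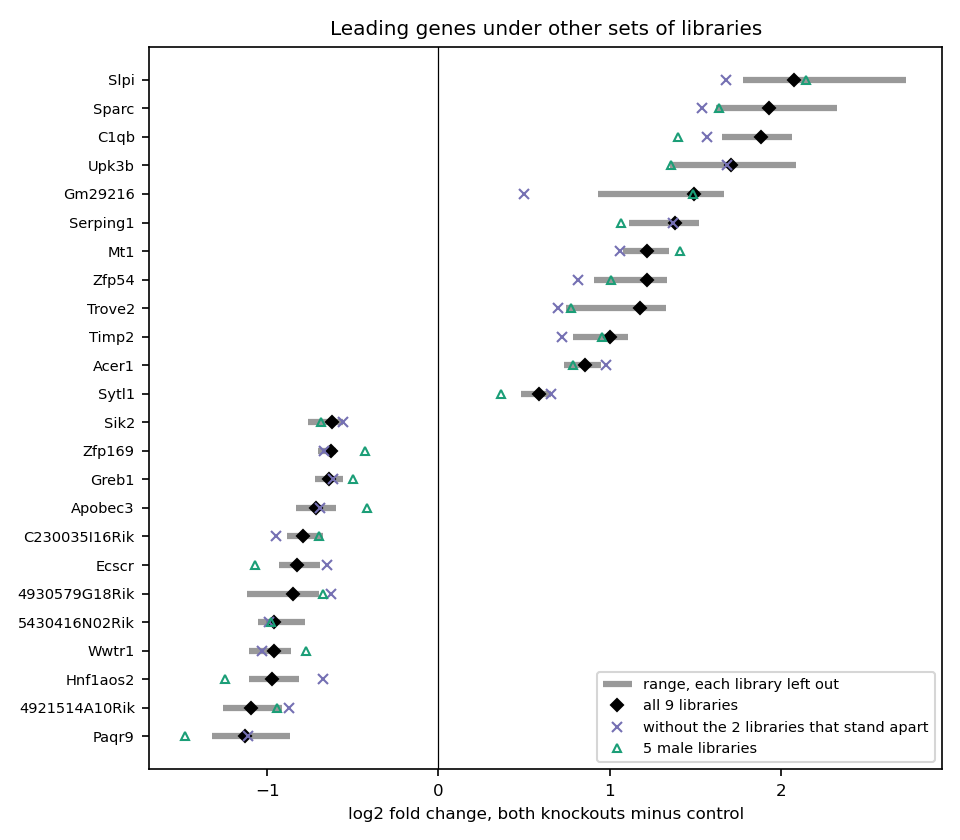
Log2 fold change of both knockouts minus control for the same 24 genes (horizontal axis) with all 9 libraries (black diamonds), its range when each library is left out (grey bars), without the 2 libraries that stand apart (crosses) and in the 5 male libraries (triangles). All 24 values keep their sign, which their choice as separated genes all but fixes when libraries are left out, so it is no test. Gm29216 moves from 1.49 to 0.50 without the 2 libraries, and Apobec3 moves from -0.72 to -0.42 in the male libraries.

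Known HIF target genes were not lower as a list in the knockouts. Of 45 listed hypoxia-inducible genes 38 were tested, with 22 above and 16 below control, a median log2 fold change of 0.03 and 0 members separated between the groups. The median of all 15486 genes was 0.02, with 54.3% above 0. The summed level of the list was 1208 to 1503 CPM in the controls and 1125 to 1455 CPM in the knockouts. Vegfa, which encodes the angiogenic growth factor, had 65.1, 60.4 and 75.1 CPM in the controls and 22.5 to 93.6 CPM in the knockouts (-0.13 ± 0.31, and 0.33 in the 5 male libraries). Slc2a1, the glucose transporter GLUT1, lay at -0.04 ± 0.26, and at 0.17 without the 2 libraries that stood apart. Pdk1, the kinase that closes pyruvate dehydrogenase, lay at -0.27 ± 0.29 (95% interval -0.91 to 0.36).

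The list held 4 members with an unadjusted p under 0.05 (1.32% of all tested genes had one), and their 2 knockout groups did not have like values. Narf, a nuclear prelamin A recognition factor, had 37.1, 39.9 and 44.3 CPM in the controls, 22.1, 18.1 and 16.7 CPM in HIF1α∆IEC and 54.5, 32.6 and 37.2 CPM in HIF2α∆IEC. The HIF1α∆IEC libraries lay below all others, and HIF2α∆IEC overlapped the controls. Its pooled log2 fold change of -0.53 ± 0.21 averaged -1.09 ± 0.25 in HIF1α∆IEC and 0.03 ± 0.25 in HIF2α∆IEC, and it was -0.22 in the 5 male libraries. The 2 groups lay 1.13 apart (unadjusted p = 0.000778, edgeR adjusted p = 0.649).

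Ankrd37, an ankyrin repeat protein, had 4.83, 2.44 and 1.78 CPM in the controls, 0.399, 0.211 and 0.999 CPM in HIF1α∆IEC and 3.97, 2.65 and 1.48 CPM in HIF2α∆IEC. It followed the same order, with a pooled value of -1.30 ± 0.49 from -2.45 ± 0.63 and -0.16 ± 0.57 (difference 2.29, unadjusted p = 0.00347, edgeR adjusted p = 0.649). Ak4, a mitochondrial adenylate kinase, had 1.42, 0.772 and 1.67 CPM in the controls, 0.214 to 0.475 CPM in HIF1α∆IEC and 0.399 to 1.13 CPM in HIF2α∆IEC (-1.25 ± 0.45). Angptl4, which inhibits lipoprotein lipase and is also a PPAR target, had 7.52, 8.17 and 8.27 CPM in the controls, 7.29 to 11.6 CPM in HIF1α∆IEC and 11.6 to 25.2 CPM in HIF2α∆IEC (0.70 ± 0.29).

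The promoters of Ankrd37 and Narf are shown because both hold the short core of the hypoxia response element. Each is the 250 bases before the gene start, 5′ to 3′ on the gene's strand, from RefSeq (GRCm38.p6), with the letters ACGTG or GCGTG on either strand in capitals.
Ankrd37 (chr8:45999851-46000100, minus strand): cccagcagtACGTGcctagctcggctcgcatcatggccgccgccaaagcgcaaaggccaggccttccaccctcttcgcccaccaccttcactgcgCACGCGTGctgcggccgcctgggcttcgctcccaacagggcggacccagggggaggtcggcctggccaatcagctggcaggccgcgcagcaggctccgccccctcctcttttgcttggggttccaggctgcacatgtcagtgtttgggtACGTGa
Narf (chr11:121236986-121237235, plus strand): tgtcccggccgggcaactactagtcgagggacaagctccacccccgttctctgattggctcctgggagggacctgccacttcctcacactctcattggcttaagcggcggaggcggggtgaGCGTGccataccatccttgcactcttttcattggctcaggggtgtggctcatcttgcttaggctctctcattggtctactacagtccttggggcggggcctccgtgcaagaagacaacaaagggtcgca
The core occurred 4 times in the Ankrd37 window, with 2 of the matches overlapping on opposite strands, and 1 time in that of Narf. It was present in 38.6% of 32851 windows of the same length, and 6.58% held 3 or more. Of the 12 leading higher genes 9 had a window, and 4 of these held the core, and of the 12 leading lower genes 8 had a window, and 4 held it. A gene counted as holding the core if any of its windows did, whereas the 38.6% is a share of single windows, so they are unlike measures. Among other windows looked at, that of Mt1 held the core 2 times, that of Mt2 1 time and that of Acer1 0 times. A match of letters is a description of the window, not of binding.

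Glycolysis genes lay slightly below control. Of 27 tested, 23 were below and 4 above, with a median of -0.09 and no member at an unadjusted p under 0.05. The summed level was 8150.0 to 12400.0 CPM in the controls and 6960.0 to 10700.0 CPM in the knockouts, so the groups overlapped. Ldha, lactate dehydrogenase A, had 2919, 1613 and 1848 CPM in the controls and 1249 to 2634 CPM in the knockouts (-0.16 ± 0.27). Without control replicate 1 the Ldha value was 0.12 and the list median 0.04. Pgk1, phosphoglycerate kinase, lay at -0.21 ± 0.21.

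Iron genes and tight junction genes lay close to control. The 24 tested iron genes had 13 above and 11 below and a median of 0.01. Slc11a2, the apical iron transporter DMT1, had 106, 70.1 and 94.2 CPM in the controls and 51.2 to 95.6 CPM in the knockouts (-0.18 ± 0.22). Slc40a1, the iron exporter ferroportin, lay at 0.07 ± 0.63, and at -0.93 without the 2 libraries that stood apart. Cybrd1, the duodenal ferric reductase, lay at -0.01 ± 0.33 (95% interval -0.74 to 0.72). The 28 tested genes of tight junctions and the barrier had 11 above and 17 below and a median of -0.07, and none had an unadjusted p under 0.05.

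Genes of mitochondria and ribosomes leaned upward in small steps, mainly in HIF1α∆IEC. Of 72 nuclear genes of oxidative phosphorylation 63 lay above control, with a median of 0.22 (0.43 in HIF1α∆IEC and -0.09 in HIF2α∆IEC) and 3 members above all controls in all 6 knockouts (0.433% of all tested genes were). The median was 0.07 in the 5 male libraries, 0.10 without control replicate 2 and 0.39 without control replicate 1. The 3 separated members were Ndufv2, Cox7b and Uqcrb, subunits of respiratory complexes I, IV and III, which are chosen here by their separation. Uqcrb had 139, 114 and 132 CPM in the controls, 178, 192 and 145 CPM in HIF1α∆IEC and 178, 170 and 151 CPM in HIF2α∆IEC (0.40 ± 0.17). Of 79 cytosolic ribosomal protein genes 70 lay above (median 0.18), with the median at -0.13 in the 5 male libraries. All 13 mitochondrially encoded genes lay above (median 0.51), and the median was -0.06 without the 2 libraries of high mitochondrial share. The 26 tested replication-dependent histone genes all lay above, with a median of 0.42 that was 1.18 in HIF1α∆IEC and -0.15 in HIF2α∆IEC and -0.24 in the 5 male libraries.

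Among epithelial lineages the goblet list was the one whose summed level separated the groups. Goblet cells secrete the mucus layer. Their list summed to 11906, 10988 and 11731 CPM in the controls, 14961, 12309 and 13841 CPM in HIF1α∆IEC and 13928, 14282 and 12398 CPM in HIF2α∆IEC. Every knockout lay above every control. Of 25 tested members 17 lay above, the median was 0.15 (0.06 in the 5 male libraries), and no single member separated the groups. By the mean log2 CPM of its members, which weights each gene equally, HIF2α∆IEC overlapped the controls (-0.08 to 0.06 against -0.11 to 0.12). Tff3, the trefoil peptide of mucus, had 828, 620 and 753 CPM in the controls, 1027, 1025 and 1251 CPM in HIF1α∆IEC and 983, 1059 and 768 CPM in HIF2α∆IEC (0.47 ± 0.19). Zg16, a lectin-like protein of the granules, had 1149, 1076 and 1785 CPM in the controls, 1365, 1340 and 2372 CPM in HIF1α∆IEC and 3006, 2566 and 2001 CPM in HIF2α∆IEC (0.63 ± 0.27). Summed levels rest on the members with the most counts, and the sum carries no test here.

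The other lineages overlapped with control or differed between the knockout groups. Of 35 tested tuft cell genes 27 lay below, with a median of -0.26 that was 0.17 in HIF1α∆IEC and -0.68 in HIF2α∆IEC, 0.16 in the 5 male libraries and 0.09 without control replicate 1. Paneth cell genes had a median of -0.20, which was 0.01 without the 2 libraries that stood apart. Genes of the distal intestine had a median of 0.35 with 17 of 23 above. The median was 0.14 without the 2 libraries that stood apart and 0.16 in the 5 male libraries. Among them Fabp6, the ileal bile acid binding protein, had 146, 133 and 402 CPM in the controls, 307, 838 and 403 CPM in HIF1α∆IEC and 396, 629 and 701 CPM in HIF2α∆IEC (1.26 ± 0.43). Control replicate 3 lay among the knockouts for Fabp6, and without it the value was 1.96. In the 5 male libraries it was 0.62. The part of the intestine that each library sampled is not given in the labels and was not tested.

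Immediate early and heat shock genes leaned upward, with 26 of 33 above and a median of 0.29, which was 0.18 without control replicate 2. Fos had 72.2, 23.9 and 35.9 CPM in the controls, 140, 51.6 and 108 CPM in HIF1α∆IEC and 180, 66.2 and 60.7 CPM in HIF2α∆IEC (1.2 ± 0.47). Junb lay at 0.51 ± 0.21 and Klf2 at 1.09 ± 0.48. Antimicrobial and defence genes leaned the other way, with 21 of 25 below and a median of -0.19, which was -0.0056 without control replicate 3. Antigen presentation genes had 20 of 24 above and a median of 0.20, led by the class II gene H2-Eb1 at 272 to 385 CPM in the controls and 367 to 721 CPM in the knockouts (0.58 ± 0.24, and 0.38 in the 5 male libraries). The list median was 0.11 without control replicate 2. Lymphocyte, macrophage and dendritic cell lists, given below, also had medians above 0, and their part in these values was not tested. Lists of cholesterol synthesis (-0.03), fatty acid oxidation (0.05), the unfolded protein response (0.05) and interferon-stimulated genes (0.02) had medians near that of all genes.

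Markers of stromal and muscle cells, which should be scarce in an epithelial preparation, were low, and by their mean log2 CPM they lay above the control mean in all 6 knockout libraries. Of 24 stromal and muscle markers 14 were tested, 12 of them lay above control, 9 had an unadjusted p under 0.05 as higher (0.827% of all tested genes did), and the median was 1.72 (1.52 in HIF1α∆IEC and 1.88 in HIF2α∆IEC). A gene that passed the low-count filter through the group where it is high was bound to differ, so the counts of stromal and of mesothelial markers describe the tested genes alone. The other 10, with the defining smooth muscle and fibroblast genes Acta2, Myh11, Cnn1, Actg2, Pdgfra and Lum among them, had too few counts to be tested. The summed level was 34.5, 27.1 and 28.7 CPM in the controls and 35.2 to 68.0 CPM in the knockouts. Col6a1, a collagen chain, had 0.195, 0.244 and 0.379 CPM in the controls and 0.471 to 1.53 CPM in the knockouts, and Col3a1 had 0.391, 0.732 and 1.10 CPM against 0.689 to 4.10 CPM. The knockout library nearest to the controls was HIF1α∆IEC replicate 1 for both genes. Without the 2 libraries that stood apart the list median was 1.55, and in the 5 male libraries it was 0.92.

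All 8 tested mesothelial markers lay above control, with a median of 1.61, and 4 of the 12 listed, Wt1 among them, had too few counts. The summed level was 3945.7, 2660.3 and 2730.5 CPM in the controls and 1955.3 to 4389 CPM in the knockouts, so it overlapped. Nearly all of it came from Krt19, a keratin that the gut epithelium also makes. Lrrn4, a mesothelial membrane protein, had 0.0488, 0 and 0.0759 CPM in the controls, 0.217, 0.581 and 0.464 CPM in HIF1α∆IEC and 0.378, 0.313 and 0.647 CPM in HIF2α∆IEC (3.24 ± 0.76). Msln, mesothelin, had 0.440, 0.163 and 0.493 CPM in the controls and 0.435 to 2.20 CPM in the knockouts (1.97 ± 0.57, and 1.13 in the 5 male libraries). The list median was 1.47 without the 2 libraries that stood apart and 0.92 in the 5 male libraries.

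Blood cell markers were uneven across the knockout libraries. All 34 tested T and intraepithelial lymphocyte genes lay above control (median 0.92), yet HIF2α∆IEC replicates 2 and 3 lay below the control mean by the mean log2 CPM of the list (-0.29 and -0.54). HIF2α∆IEC replicate 1 lay 2.64 above it, and without the 2 libraries that stood apart the median was 0.12. Erythroid genes had a median of 2.28, or 0.36 without these libraries, and lay 1.55 above the control mean in HIF1α∆IEC replicate 2 and 3.19, 1.40 and 0.84 above it in the HIF2α∆IEC libraries. Macrophage and dendritic cell genes had 16 of 19 above and a median of 0.65, or 0.16 without these libraries, with C1qa, C1qb, C1qc and Csf1r among the 5 members at an unadjusted p under 0.05 as higher (0.827% of all tested genes). The part that these cells play in the leading genes was not tested. Of the listed genes, 19 of 26 macrophage and dendritic cell genes and 7 of 10 erythroid genes passed the low-count filter. A gene can pass it through the group where it is high, so these counts and medians also describe the tested genes alone.

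**Figure D5:**
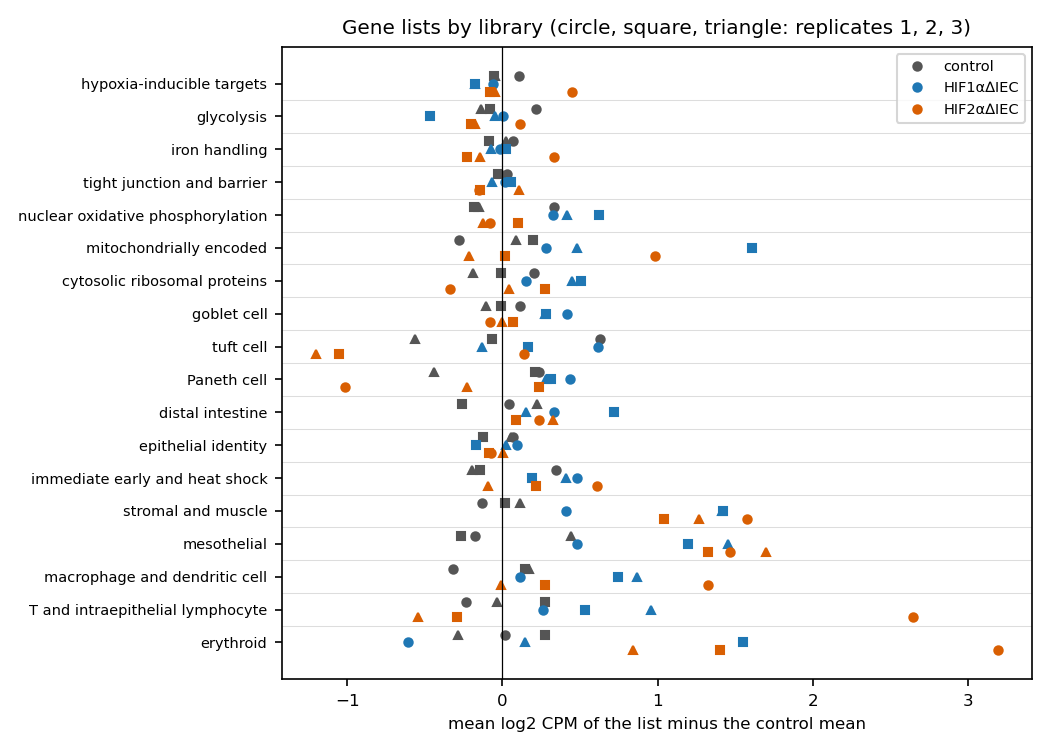
Mean log2 CPM of 18 gene lists in each of 9 libraries minus the control mean (horizontal axis), with controls in grey, HIF1α∆IEC in blue and HIF2α∆IEC in orange, and replicates 1, 2 and 3 as circles, squares and triangles. HIF2α∆IEC replicate 1 lies 2.64 above the control mean for lymphocyte genes, and stromal and mesothelial genes lie 0.41 to 1.70 above it in the 6 knockouts. For mesothelial genes control replicate 3 lies 0.44 above the control mean, just under HIF1α∆IEC replicate 1 (0.48). The lists hold only genes that passed the low-count filter.

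At some genes the pooled value averaged unequal values, which the direct comparison of the knockout groups shows without using the controls. HIF2α∆IEC against HIF1α∆IEC also gave 0 called genes in edgeR (0%, smallest adjusted p = 0.219), with 1021 genes (6.59%) at an unadjusted p under 0.05. DESeq2 called 15 (0.0975%) and limma-voom 0, but limma-voom with quality weights called 2909. Pxdn, the matrix peroxidase peroxidasin, had 0.391, 0.975 and 1.40 CPM in the controls, 0.906, 0.95 and 1.64 CPM in HIF1α∆IEC and 8.60, 21.1 and 18.4 CPM in HIF2α∆IEC. Its pooled log2 fold change of 2.21 ± 0.47 averaged 0.33 ± 0.51 and 4.10 ± 0.53, so DESeq2's call of Pxdn for either loss rests on HIF2α∆IEC. Guca2a, the hormone guanylin, averaged 1.12 ± 0.33 and 0.08 ± 0.32 to a pooled 0.60 ± 0.29, which was 0.25 in the 5 male libraries.

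Of the other genes that DESeq2 called, Xist read the sex of the animals and lay at -0.13 with a term for sex. That term was itself drawn from Xist and Y-linked counts, so this fall was set beforehand. Gm6969, a processed pseudogene on chromosome 12, had 69.1, 51.3 and 0.683 CPM in the controls and 1.09 to 1.64 CPM in the knockouts. Control replicate 3 thus lay below every knockout library, and the log2 fold change of -5.02 ± 0.82 rests on the other 2 controls. Without that control edgeR called Gm6969 alone.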

How the data were processed

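RNA of small intestine epithelial cells was sequenced after TruSeq library preparation, per the labels' protocols. The authors deposited raw counts per gene for 43629 genes in 9 libraries. The submitters' processing notes name CASAVA, Bowtie 0.12.2 and mm10 as the build. How reads were counted, on which annotation and whether by strand is not given in the sources used here. Of the identifiers, 42462 were also in GENCODE M21.

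In R 4.3.3 with edgeR 4.0.16, filterByExpr by group kept 15486 genes and libraries were scaled by TMM. A quasi-likelihood fit of 3 group means (6 residual degrees of freedom, common biological coefficient of variation 0.353) gave the contrast of both knockout means, weighted 0.5 each, minus control. Two-sided p-values were adjusted by Benjamini-Hochberg over all tested genes and called under 0.05. CPM are counts per unit of TMM-scaled library size, log2 fold changes carry their SE, and intervals are 95%. The fits were tested on simulated counts.

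Named genes were Hif1a, Epas1 and Arnt, the 12 higher and 12 lower genes of smallest p at a mean CPM of at least 1 whose 6 knockout libraries lay outside all controls, up to 3 leading members of a described list, and 12 HIF, iron and metallothionein genes. Others are said to be chosen after their values were seen, as were Col6a1, C1qc, Ndufv2, Cox7b, Guca2a, Pxdn and Gm6969. The members and the 41 gene lists were chosen with earlier results of these data known.

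Alternatives were DESeq2 1.42.0, scaling by RLE or the upper quartile, limma-voom (limma 3.58.1) with and without quality weights, no count filter, a CPM of at least 1 in 3 libraries, 2 groups, the replicate number as a block, a term for sex, glmTreat against a fold of 1.2, and leaving out each library or the 2 that stood apart. The 5 male libraries alone, and the checks of the ratio, were added after seeing the data. No library looked like a copy of another. The chi-square per gene, about 1 for counting noise, was 39.9 or more between libraries of 1 group and 16.3 or more between groups. The lowest value was that of control replicate 1 and HIF1α∆IEC replicate 1.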

Additional observations from a re-analysis of the deposited data

Results flagged for a closer look

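In each case below, 1 of the 6 knockout libraries lay far from the other 5 by Dixon's test at the 95% level. This held for 9 of 80 genes looked at, where chance gives about 1 in 20. That rate assumes normal values of a single group and independent genes. The values here are CPM of both knockout groups, and the globin genes share their high library, so the rate is a rough guide. HIF2α∆IEC replicate 1 was the high library for Slpi (3.149 CPM, others 0.761 to 1.531), Hbb-bt (7.494 CPM, others 0.145 to 2.64), Hbb-bs (54.5 CPM, others 1.268 to 10.77), Hba-a1 (47.39 CPM, others 1.015 to 8.869) and Xcl1 (4.723 CPM, others 0.3236 to 1.284). HIF1α∆IEC replicate 2 was high for Trove2 (6.071 CPM, others 1.595 to 2.519). HIF1α∆IEC replicate 1 was low for Col3a1 (0.6885 CPM, others 2.834 to 4.101). HIF1α∆IEC replicate 3 was high for H2-Eb1 (720.8 CPM, others 366.9 to 485.7) and for Gm6969 (1.64 CPM, others 1.087 to 1.254).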

How the results depend on the processing

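The count of genes called for either loss against control was 0, and it stayed 0 under RLE and upper-quartile scaling, limma-voom, the CPM minimum, 2 groups, the sex term, glmTreat, the 5 male libraries and without the 2 libraries that stood apart. It was 4 with DESeq2, 5 without a count filter, 1 with the replicate block (Xist) and 19 with quality weights, and it ran from 0 to 1 when each library was left out (Gm6969 without control replicate 3). For HIF2α∆IEC against HIF1α∆IEC it was 15 with DESeq2, 10 without a count filter and 2909 with quality weights, and ran from 0 to 1 when each library was left out (Pxdn without HIF2α∆IEC replicate 1). The cause was not tested.

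The replicate numbers did not pair the libraries throughout. Of 9 same-numbered pairs 3 had a correlation of deviations over 0.1 (range -0.37 to 0.237), and 4 of 9 libraries correlated best with their own number. By chi-square per gene, control and HIF1α∆IEC replicates 1 (16.3) and control and HIF2α∆IEC replicates 3 (22.9) were closer than any libraries of the same group (39.9 or more). Whether libraries of the same number shared a batch was not tested.

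The other sign was taken by Xist (-0.13), Vegfa (0.34), Epas1 (0.58) and Cybrd1 (0.31) with the sex term. In the 5 male libraries it was taken by Vegfa (0.33), Epas1 (0.53) and Cybrd1 (0.30). Without the 2 libraries that stood apart it was taken by Slc2a1 (0.17), Slc40a1 (-0.93) and Cybrd1 (0.070). With quality weights it was taken by Ireb2 (-0.049), Ldha (0.18), Slc2a1 (0.23), Slc40a1 (-0.70) and Cybrd1 (0.29). Slc40a1 was at -0.12 in limma-voom and -0.031 with the replicate block, and Cybrd1 at 0.0054 with the CPM minimum and 0.019 in 2 groups. Leaving out each library gave ranges across 0 for Ldha (-0.32 to 0.12), Vegfa (-0.37 to 0.027), Arnt (-0.13 to 0.023), Epas1 (-0.47 to 0.24), Slc2a1 (-0.14 to 0.13), Slc40a1 (-0.73 to 0.57) and Cybrd1 (-0.17 to 0.10). The 24 leading genes kept their sign under every alternative that could be fitted. Their choice as separated genes all but fixes this whenever libraries are left out, so it is no test. Lrrn4 and Xist were not tested in the 5 male libraries. No scaling moved the median of all genes by 0.1 or more. Of 43629 genes, 15486 had enough counts to be tested.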
